A study of Rattus norvegicus with 9 samples.

Results

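The MHC class II genes described here were read from the table of gene counts of rat femurs: RT1-Da, RT1-Db1, RT1-Ba, RT1-Bb, RT1-DMa, RT1-DMb, Cd74 and Ciita. They were taken by symbol, 8 of 31125 gene rows, and all 8 passed the low-count filter that left 15936 genes. They were selected on differences in counts between Sham, GPI and GMTT that an earlier analysis of these libraries had shown, so their own differences between groups stand below as a description, without p-values. The study took femurs of male rats at day 7 in 3 groups of 3 libraries. Sham rats had sham surgery, GPI rats had an injury of the growth plate at the distal femur, and GMTT rats had that injury and a hydrogel that the series title describes as GelMA (methacrylated gelatin), TPGS and tea polyphenols. The labels of Sham and GPI speak of intact femurs and those of GMTT of an intact growth plate. They name no strain, age or pooling, so the spread between libraries is all that the errors measure.

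MHC class II molecules are pairs of an alpha and a beta chain that show peptides from endosomes to helper T cells. B cells, dendritic cells and macrophages carry most of them, and marrow of long bones holds all of these cells. In the rat the class II region is called RT1: RT1-Da and RT1-Db1 encode the RT1.D molecule, the counterpart of human DR, and RT1-Ba and RT1-Bb encode RT1.B, the counterpart of human DQ. Newly made chains are held by the invariant chain, Cd74, which is then cut down to a short peptide in the groove. RT1-DMa and RT1-DMb encode DM, which exchanges that peptide for others. Ciita, the class II transactivator, binds no DNA itself but joins RFX, CREB and NF-Y factors that sit on the X and Y boxes of these promoters.

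The promoter stretches with these boxes are shown because RT1-Db1, RT1-DMa and RT1-Bb, which all hold both, differed in direction in GPI. Of the 8 genes, 6 had an entry among the RefSeq promoters (build GRCr8), of which the 250 bases before the start of transcription were searched. The X box was searched as a G, 2 free bases, AC, a free base and GATG, and the Y box as TGATTGG, on both strands and with these sequences in view. The last letters of the Y box, ATTGG, are the complement of CCAAT. Each stretch is written 5′ to 3′ on the gene's strand, with matches in capitals (in Cd74, CCAAT).
RT1-Da, chr20:4515318-4515385, plus strand: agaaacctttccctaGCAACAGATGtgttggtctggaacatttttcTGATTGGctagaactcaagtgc
RT1-Db1, chr20:4560223-4560289, minus strand: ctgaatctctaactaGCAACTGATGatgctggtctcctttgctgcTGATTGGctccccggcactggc
RT1-Ba, chr20:4576955-4577033, plus strand: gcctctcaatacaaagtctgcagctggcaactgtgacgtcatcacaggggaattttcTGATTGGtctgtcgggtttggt
RT1-Bb, chr20:4604160-4604226, minus strand: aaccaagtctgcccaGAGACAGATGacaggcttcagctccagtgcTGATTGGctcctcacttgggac
RT1-DMa, chr20:4712380-4712447, minus strand: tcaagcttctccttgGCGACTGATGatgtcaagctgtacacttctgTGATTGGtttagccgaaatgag
Cd74, chr18:56526972-56527036, plus strand: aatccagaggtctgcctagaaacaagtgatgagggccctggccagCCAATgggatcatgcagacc

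RT1-Da, RT1-Db1, RT1-Bb and RT1-DMa each held the X box followed, after 20 or 21 bases, by the Y box. The X box began 82 bases before the start in RT1-Da, 112 in RT1-Db1, 93 in RT1-Bb and 97 in RT1-DMa. RT1-Ba held the Y box, 45 bases before the start, without a match to the X box letters. Cd74 matched neither and held CCAAT 189 bases before its start. Either strand of all 33469 promoters matched the X box in 2.26%, the Y box in 6.42% and CCAAT in 34.0%. An X box followed on the gene's strand by a Y box at a gap of 15 to 25 bases occurred in 6 promoters of 33469 (0.0179%). Those 6 were RT1-Da, RT1-Db1, RT1-Db2, RT1-Bb, RT1-DMa and RT1-DOb, all class II genes. The letters were set with the promoters of the genes described here in view, and the gap range surrounds their 20 and 21 bases. RT1-Da, RT1-Db1, RT1-Bb and RT1-DMa were thus bound to be among the 6. These are matches of letters, and no file here measures binding.

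The 9 libraries held 15927429 to 19715997 counts. Whole-tissue makeup differed between the groups. Summed over 7 skeletal muscle markers, normalised CPM (library-scaled counts, TMM method) ran from 1296 to 1398 in Sham, 122600 to 128200 in GPI and 12550 to 13310 in GMTT. Summed erythroid markers ran from 11430 to 11710, 172.3 to 193.8 and 6173 to 6360 in the same order. For 7 neutrophil markers the sums were 6921 to 7485, 7.90 to 9.24 and 8068 to 8545. Markers of cartilage and bone were found in every group, with Bglap, the osteoblast gene for osteocalcin, at 276 CPM in Sham, 83.7 in GPI and 163 in GMTT, while the cartilage collagen gene Col2a1 was at 13.9, 3.71 and 2.39. Not all of the 7 listed markers of cartilage and bone fell. In GPI against Sham 5 were called lower and 2 higher (0 higher with library totals only). In GMTT against Sham 3 were lower and 2 higher. The shares over all genes were 48.1% lower and 40.1% higher, then 28.3% and 29.5%. In such bulk tissue, fewer cells of a type and less RNA per cell cannot be told apart.

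Compared per length, by the deposited FPKM, Cd74 had the highest mean of the 8 genes in every group, and RT1-DMb the next. Cd74 had 61.2 ± 1.96 FPKM in Sham, 19.6 ± 1.08 in GPI and 148 ± 6.63 in GMTT (SD, n = 3). RT1-DMb followed at 24.5 ± 1.86, 18.3 ± 1.24 and 40.2 ± 2.53, and in GPI its libraries overlapped those of Cd74 (16.8 to 19.1 against 18.5 to 20.6 FPKM). In Sham the order went on with RT1-DMa (12.5 FPKM), RT1-Da (6.80), RT1-Db1 (1.66), Ciita (0.867), RT1-Ba (0.607) and RT1-Bb (0.328), and no neighbours in this order overlapped between libraries. In GPI it was RT1-Da (5.00), RT1-Ba (3.46), RT1-Bb (1.81), RT1-DMa (1.60), Ciita (0.198) and RT1-Db1 (0.136), where RT1-Bb overlapped with RT1-DMa, and Ciita with RT1-Db1. In GMTT it was RT1-Da (25.4), RT1-DMa (18.7), RT1-Db1 (4.38), RT1-Ba (3.52), Ciita (1.86) and RT1-Bb (1.18), and no neighbours in that order overlapped. Per-length levels rest on the gene lengths of the authors' table, from 1382 bases for RT1-Ba to 7368 for Ciita.

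The RT1.D chains did not move in step. RT1-Da (ENSRNOG00000032844, mRatBN7.2 chromosome 20, 4512911 to 4518455, plus strand) had 27.1, 27.8 and 27.1 normalised CPM in the Sham libraries, 19.3, 18.8 and 20.9 in GPI and 99.5, 99.97 and 100.2 in GMTT. The 3 groups were apart, with GMTT far above both others. Its log2 fold change was -0.48 (SE 0.07) for GPI against Sham, 2.35 (SE 0.06) for GMTT against GPI and 1.87 (SE 0.06) for GMTT against Sham.

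RT1-Db1 (ENSRNOG00000033215, chromosome 20, 4548666 to 4558258, minus strand), the beta chain gene, had 8.91, 7.75 and 9.93 CPM in Sham, 0.677, 0.588 and 0.867 in GPI and 22.3, 24.7 and 21.6 in GMTT. Its groups were also apart, but GPI was 12.5-fold below Sham where RT1-Da was 1.39-fold below. With libraries scaled by their totals only, these differences were -4.72 for RT1-Db1 and -1.57 for RT1-Da on the log2 scale. The GPI values rest on 24 counts over 3 libraries. Log2 fold changes were -3.64 (SE 0.21), 5.01 (SE 0.18) and 1.37 (SE 0.09) in the same order of contrasts. How reads that match RT1-Db1 and its near copy RT1-Db2 were shared is not given in the sources used here. Summed, the pair of beta genes had 13.5 ± 1.75 CPM in Sham, 0.883 ± 0.107 in GPI and 26.4 ± 2.07 in GMTT, which is again the order GPI, Sham, GMTT.

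RT1.B genes went the other way in GPI. RT1-Ba (ENSRNOG00000000451, chromosome 20, 4575134 to 4579744, plus strand) had 0.832, 0.780 and 0.966 CPM in Sham, 5.08, 4.87 and 4.43 in GPI and 5.38, 4.17 and 5.09 in GMTT. GPI and GMTT both stood above Sham and overlapped each other. The log2 fold changes were 2.48 (SE 0.21), 0.02 (SE 0.15) and 2.50 (SE 0.19).

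RT1-Bb (ENSRNOG00000032708, chromosome 20, 4596559 to 4607597, minus strand) had 1.66, 2.12 and 1.75 CPM in Sham, 9.74, 11.5 and 8.77 in GPI and 6.44, 7.03 and 6.10 in GMTT. Every GPI library was above every GMTT library, and these above every Sham library. Fold changes on the log2 scale were 2.43 (SE 0.16), -0.62 (SE 0.13) and 1.81 (SE 0.15). The step from GPI to GMTT turned to 0.48 when libraries were scaled by their totals only, and that of RT1-Ba became 1.12. The rise over Sham kept its sign in GPI under that scaling, at 1.39 for RT1-Ba and 1.34 for RT1-Bb.

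The DM chains parted like the RT1.D chains. RT1-DMa (ENSRNOG00000066773, chromosome 20, 4707028 to 4710432, minus strand) had 20.3, 20.2 and 23.5 CPM in Sham, 2.20, 3.11 and 2.70 in GPI and 29.7, 33.4 and 30.1 in GMTT. GPI was 7.97-fold below Sham (log2 -2.99, SE 0.13), and GMTT was 3.54 (SE 0.13) above GPI and 0.54 (SE 0.08) above Sham on the log2 scale. RT1-DMb (ENSRNOG00000049491, chromosome 20, 4693103 to 4700340, minus strand) had 36.2, 33.6 and 39.4 CPM in Sham, 27.5, 27.9 and 24.4 in GPI and 62.3, 58.0 and 55.4 in GMTT. In GPI it was 1.36-fold below Sham (log2 -0.45, SE 0.08), and GMTT was higher by 1.14 (SE 0.07) than GPI and by 0.69 (SE 0.06) than Sham. With library totals only, GPI against Sham was -1.54 for RT1-DMb and -4.08 for RT1-DMa.

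Cd74 (ENSRNOG00000018735, chromosome 18, 54256778 to 54266003, plus strand) had 142, 141 and 150 CPM in Sham, 45.6, 47.9 and 42.5 in GPI and 357, 339 and 329 in GMTT. All groups were apart, in the order GPI, Sham, GMTT. Log2 fold changes were -1.67 (SE 0.06), 2.91 (SE 0.06) and 1.24 (SE 0.05). Ciita (ENSRNOG00000002659, chromosome 10, 5140178 to 5187440, minus strand) followed the same order at a low level, with 6.41, 6.24 and 6.99 CPM in Sham, 1.78, 1.18 and 1.45 in GPI and 13.0, 14.5 and 13.7 in GMTT. Its log2 fold changes were -2.15 (SE 0.18), 3.22 (SE 0.16) and 1.07 (SE 0.10). With library totals only, GPI against Sham was -2.76 for Cd74 and -3.24 for Ciita. All 8 genes are protein-coding, and no other gene model of the authors' table overlaps any of them.

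**Figure D1:**
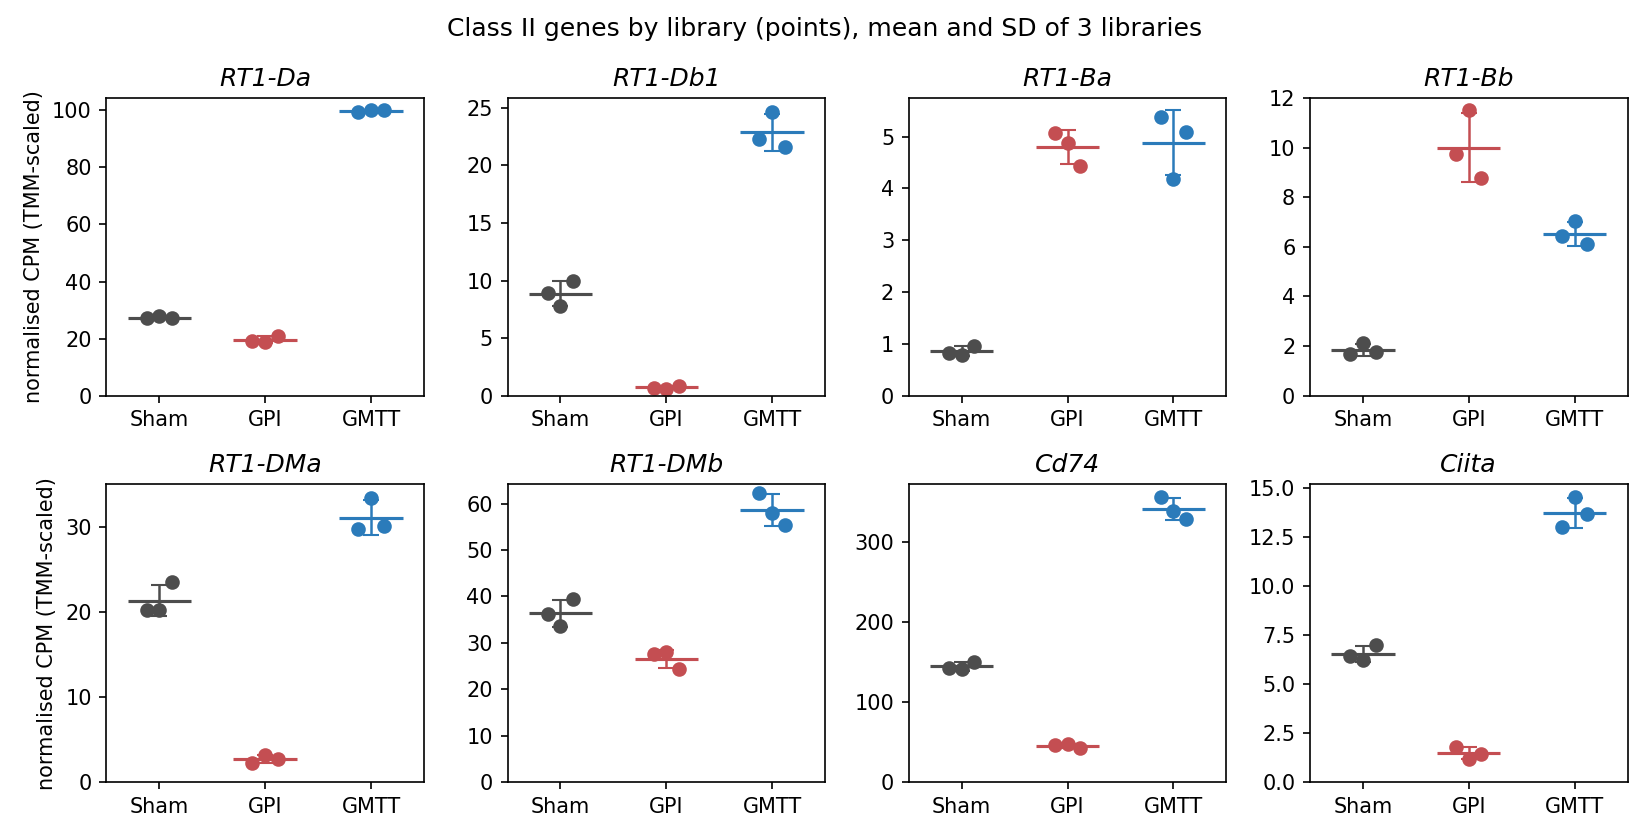
Normalised CPM (linear axis from 0) of each class II gene in Sham, GPI and GMTT femurs, with points for libraries and lines and bars for mean and SD of 3. RT1-Ba and RT1-Bb are lowest in Sham, and the other 6 genes are lowest in GPI. GMTT is highest for the same 6. RT1-Bb is highest in GPI, and GPI and GMTT overlap for RT1-Ba.

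GPI against Sham compares injured with sham-operated femurs. Injury and the muscle, erythroid and neutrophil content of the samples differ together between these groups and cannot be told apart. Of the 8 class II genes, 2 were called higher (RT1-Ba and RT1-Bb) and 6 lower at an adjusted p below 0.05, beside 88.2% of all genes called, 40.1% higher and 48.1% lower. Libraries of the groups were apart for all 8, as for 88.3% of all genes. The median log2 fold change was -1.07 over the 8 genes and -0.19 over all genes. Scaled by library totals only, the all-gene median was -1.28 and that of the 8 genes -2.17, and the calls of all genes split into 3521 higher and 11210 lower in place of 6387 and 7662.

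The second comparison, GMTT against GPI, sets injured femurs with hydrogel against those without. Hydrogel, the tissue wording of the labels and the muscle, erythroid and neutrophil content differ together between these groups and cannot be told apart. Of the 8 genes, 6 were called higher and RT1-Bb lower. All genes were called in 85.9%, with 45.7% higher and 40.2% lower, and groups were apart for 7 of the 8 genes and for 86.2% of all. The medians were 2.63 for the 8 and 0.12 for all genes. With library totals only these became 3.73 and 1.22, all 8 class II genes were called higher, and calls over all genes split into 11503 higher and 3016 lower in place of 7285 and 6400.

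The third comparison, GMTT against Sham, shares its GMTT libraries with the second and its Sham libraries with the first. Here injury, hydrogel, tissue wording and the muscle, erythroid and neutrophil content differ together and cannot be told apart. All 8 genes were called higher and were apart between groups, where 57.8% of all genes were called (29.5% higher, 28.3% lower) and 61.7% were apart. Their median was 1.31, against -0.003 over all genes, and ranged from 0.54 (RT1-DMa) to 2.50 (RT1-Ba). Since the genes were chosen with these contrasts known, nothing is read from their counts.

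**Figure D2:**
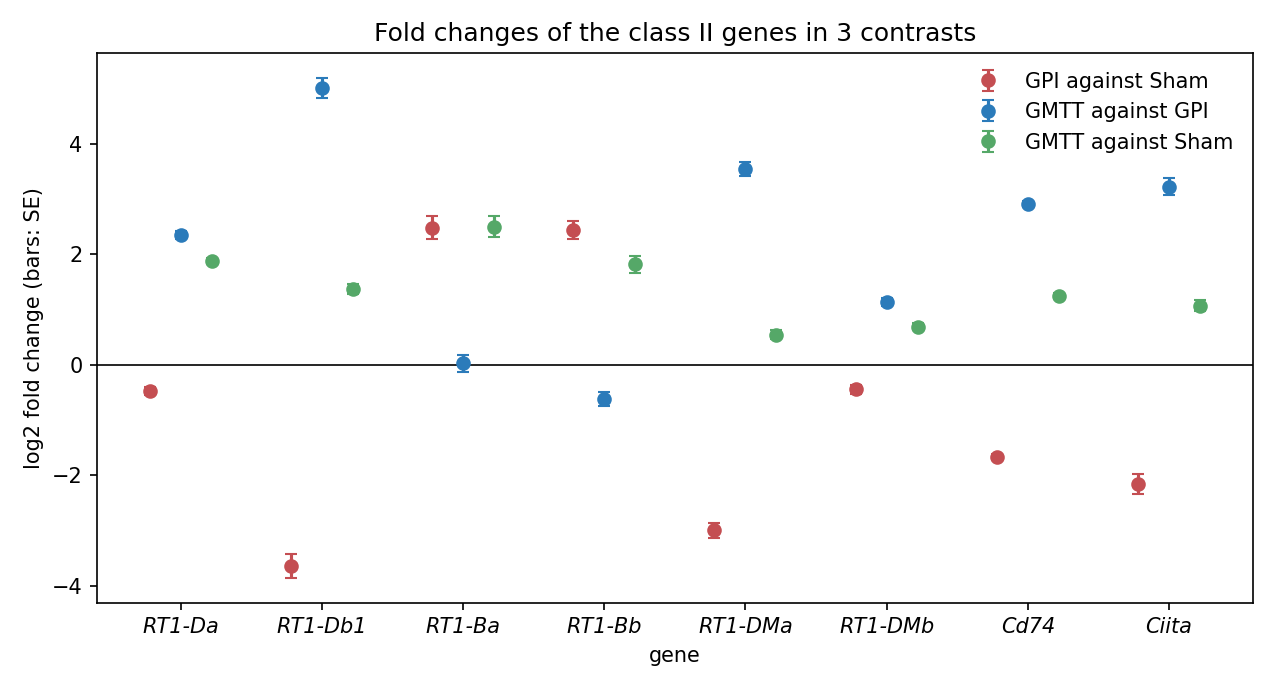
Log2 fold change (y axis, bars are SE) of the 8 class II genes (x axis) for 3 contrasts. RT1-Ba and RT1-Bb lie above 0 for GPI against Sham, at 2.48 and 2.43, while RT1-Db1 reaches -3.64; all 8 lie above 0 for GMTT against Sham.

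Ratios between genes within a library do not depend on scaling between libraries. They do depend on how well reads of each RT1 gene match the reference, and whether the rats' RT1 alleles differ from it was not tested. The FPKM ratio of RT1-Da to RT1-Db1, alpha to beta chain of RT1.D, was 4.04, 4.76 and 3.62 in Sham, 37.8, 42.5 and 32.0 in GPI and 5.91, 5.38 and 6.14 in GMTT. It was thus 9.04-fold higher in GPI than in Sham, with no overlap. The ratio of RT1-DMa to RT1-DMb was 0.490, 0.526 and 0.520 in Sham, 0.0699, 0.0974 and 0.0968 in GPI and 0.418, 0.504 and 0.475 in GMTT, 5.88-fold lower in GPI than in Sham and overlapping between GMTT and Sham.

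RT1.B chains did not part in GPI. RT1-Ba to RT1-Bb was 1.99, 1.46 and 2.20 in Sham and 2.07, 1.68 and 2.01 in GPI, which overlapped, and 3.32, 2.36 and 3.32 in GMTT, apart from both. Between the alpha chains of the isotypes, RT1-Da to RT1-Ba was 11.5, 12.6 and 9.88 in Sham, 1.34, 1.36 and 1.66 in GPI and 6.52, 8.44 and 6.93 in GMTT. RT1.B's alpha chain thus came near to that of RT1.D in GPI, a ratio 7.78-fold below Sham.

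Invariant chain relative to RT1-Da was 8.93, 8.62 and 9.44 in Sham, 4.02, 4.33 and 3.46 in GPI and 6.11, 5.77 and 5.59 in GMTT, with all 3 groups apart. Ciita relative to Cd74 had log2 ratios of -6.14 ± 0.0362 in Sham, -6.65 ± 0.342 in GPI and -6.31 ± 0.124 in GMTT. Those of GPI and GMTT overlapped.

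Of the FPKM summed over the 6 chain genes, RT1-DMb made up 52.7% ± 0.970 in Sham; its GPI share was 60.3% ± 1.61 and its GMTT share 43.1% ± 1.60. RT1-DMa took 27.0% ± 0.754, 5.29% ± 0.866 and 20.0% ± 1.27, and RT1-Da 14.7% ± 1.15, 16.6% ± 1.77 and 27.2% ± 0.833. RT1-Ba and RT1-Bb together with RT1-Db1 made up the rest, and RT1-Ba moved most among these, from 1.31% ± 0.0564 to 11.4% ± 0.452 in GPI and 3.78% ± 0.505 in GMTT (SD, n = 3).

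**Figure D3:**
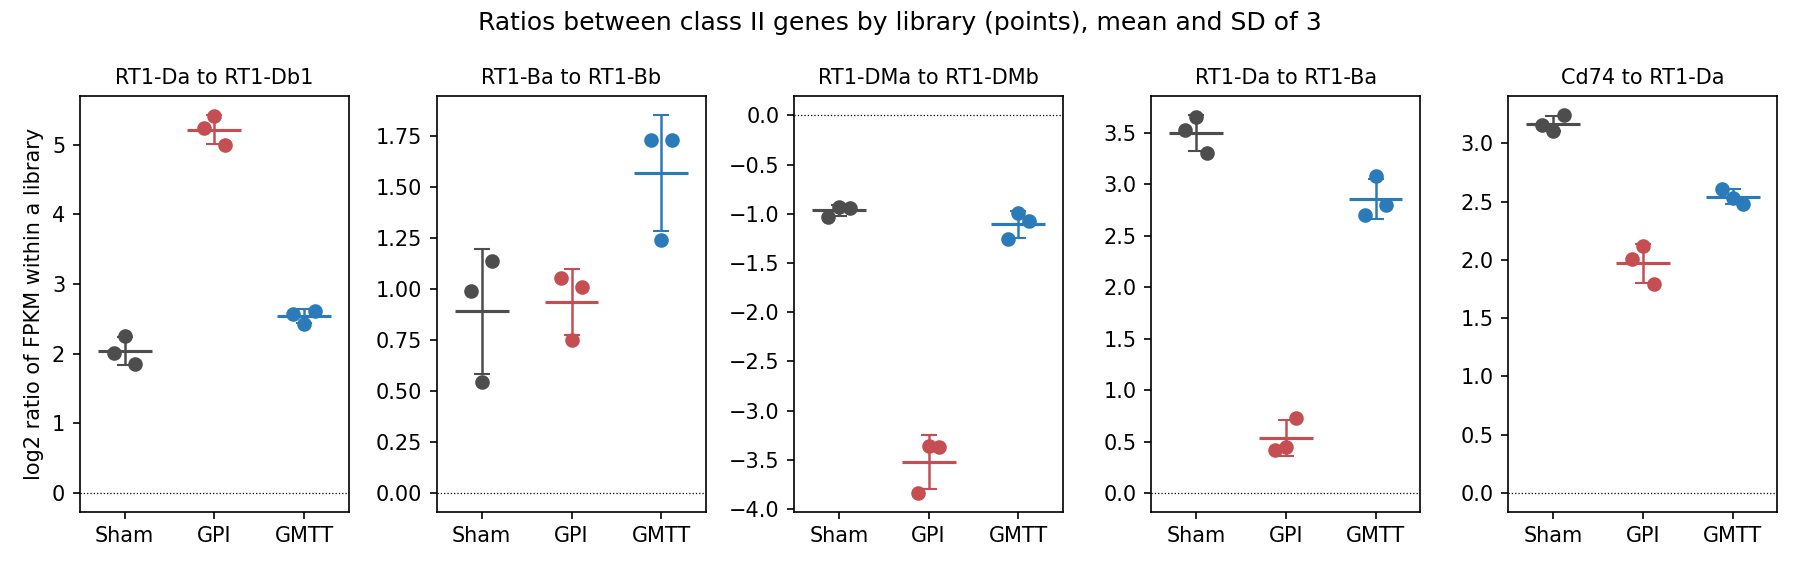
Log2 ratio of FPKM between class II genes within each library (points; lines and bars are mean and SD of 3; each panel has its own range). GPI is high for RT1-Da to RT1-Db1 (mean 5.22 against 2.04 in Sham), low for RT1-DMa to RT1-DMb and RT1-Da to RT1-Ba, and overlaps Sham for RT1-Ba to RT1-Bb.

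The 6 chain genes lie within 244 kb of chromosome 20, between the starts of RT1-Da and the end of RT1-DOa, with 9 other genes of the table. RT1-Ba and RT1-Bb are neighbours and were the only protein-coding genes of this stretch called higher in GPI than in Sham. Of the 9 others, 8 were called lower and the long non-coding RNA LOC120098895 higher (edgeR quasi-likelihood test, adjusted over all genes). Among all genes, 48.1% were called lower and 40.1% higher. RT1-DOb next to RT1-Bb changed by -4.19 (SE 0.30) and RT1-Db2 by -4.66 (SE 0.36), the latter on 6 counts in GPI. Between them and DM lie genes of the class I pathway: Psmb8 fell by 3.43, Tap1 by 2.43, Psmb9 by 2.33 and Tap2 by 2.04 on the log2 scale. The models of Tap1 and Psmb9 overlap on opposite strands, and whether strand was used in counting is not stated. In GMTT against GPI the same 8 neighbours were called higher, as were 45.7% of all genes. In GMTT against Sham, 3 of the 9 were called higher, 2 lower and 4 were not called. Of all genes 29.5% were higher and 28.3% lower there.

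**Figure D4:**
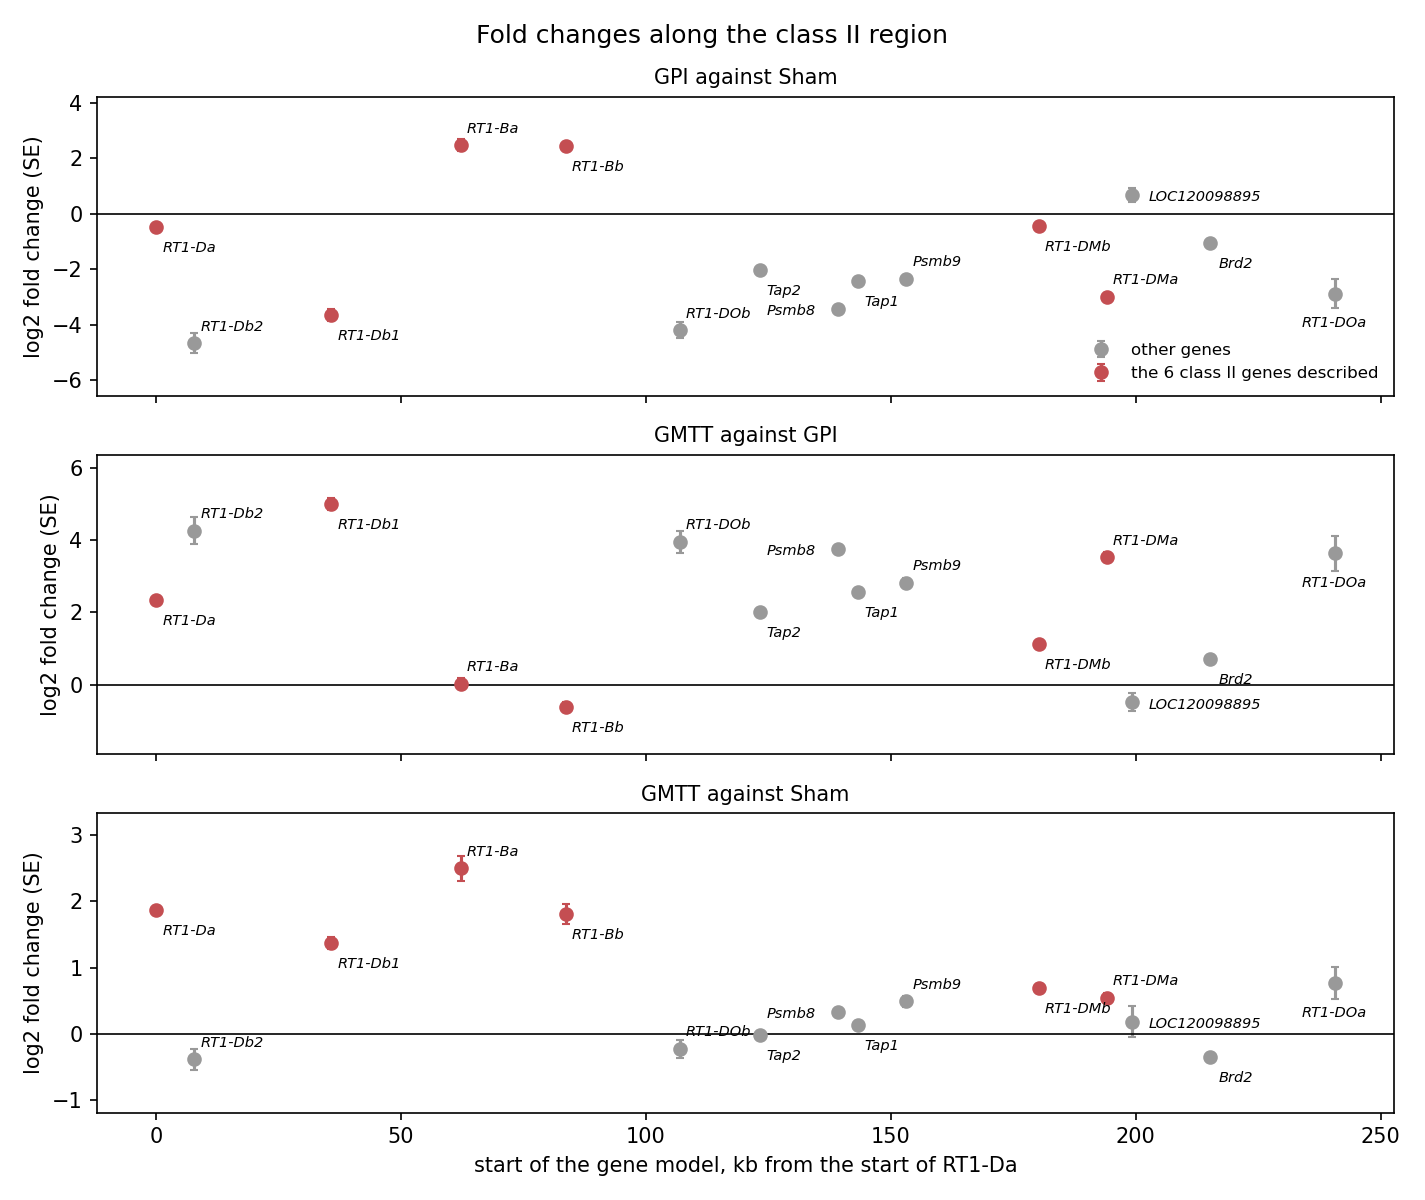
Log2 fold change (y axis, bars are SE; ranges differ between panels) against the distance of the start of each gene model from that of RT1-Da in kb, for 15 genes and 3 contrasts. RT1-Ba and RT1-Bb stand above 0 among neighbours below 0 for GPI against Sham; for GMTT against Sham the 4 classical chain genes reach 1.37 to 2.50, above the genes from RT1-DOb to Psmb9.

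The list of class II regulators, chosen like all lists here with earlier results known, had 13 tested genes of 14. In GPI against Sham 10 were called lower and 2 higher (0 higher with library totals only), with a median of -0.94, where 48.1% of all genes were lower and 40.1% higher. Spi1 (PU.1, a master factor of myeloid and B cells) fell from 74.4 ± 5.13 to 1.85 ± 0.0788 CPM (log2 -5.33, SE 0.11; edgeR quasi-likelihood, adjusted p = 2.41e-29). Irf8, of dendritic cells and monocytes, fell by 4.28 and Irf4 by 2.87. Subunits of the box-binding complexes differed. Of NF-Y, which binds the Y box, Nfya fell by 1.93 and Nfyb by 0.84, while Nfyc was at -0.05 and not called (-1.14, called lower, with library totals only). Of RFX, which binds the X box, Rfx5 fell by 1.24 and Rfxap by 0.94, while Rfxank rose by 0.43 (SE 0.10), which turned to -0.66 with library totals only. Ifngr1, the ligand-binding chain of the interferon gamma receptor, rose from 56.0 ± 0.840 to 86.1 ± 1.14 CPM (0.62, SE 0.05, which turned to -0.47 with library totals only).

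In GMTT against GPI, 10 of the 13 regulators were called higher and 2 lower, the latter 0 with library totals only. Over all genes 45.7% were higher and 40.2% lower. Irf8 rose by 4.70, Spi1 by 5.57, Irf4 by 2.29 and Irf1, an interferon-induced factor acting on Ciita, by 1.81 (SE 0.08). Against Sham, 5 were higher and 7 lower in GMTT, beside 29.5% and 28.3% of all genes. Irf1 was higher, at 52.8 ± 4.72 against 34.3 ± 1.27 CPM (0.62, SE 0.06, adjusted p = 7.69e-10 in the same test), as were Ifngr1 (0.63) and Irf8 (0.42). Irf4 was lower by 0.58, Nfya by 0.34, Nfyc by 0.32 and Rfx5 by 0.23, Rfxank (-0.04) was not called, and all 8 class II genes were above Sham.

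Of 13 tested genes of the list of other class II pathway genes, which process and load antigen, 10 were lower and 2 higher in GPI than in Sham (1 higher with library totals only), with a median of -1.97, beside the same 48.1% and 40.1% of all genes. Ctss, the protease that trims the invariant chain in B cells and dendritic cells, fell from 41.5 ± 1.29 to 10.9 ± 1.59 CPM (log2 -1.92, SE 0.08). Ifi30, a thiol reductase of antigen processing, fell by 1.97, Ctsb by 2.01 and Marchf8, a ubiquitin ligase of membrane proteins, by 2.30. Ctsl, the related protease of thymic epithelium and macrophages, rose from 59.0 ± 0.203 to 147 ± 6.16 CPM (1.31, SE 0.05; 0.22 with library totals only). RT1-DOa, the alpha chain of the DM inhibitor DO, had 4 counts in GPI and fell by 2.88 (SE 0.53).

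Against GPI, 11 of the 13 were higher in GMTT and 2 lower (0 lower with library totals only). The shares over all genes were 45.7% and 40.2%. Ifi30 rose by 2.46, Ctss by 2.63 and Ctsb by 1.51. Ctsl was lower by 0.93 and turned to 0.17 with library totals only. Against Sham, 7 were higher and 4 lower, beside 29.5% and 28.3% of all genes. Ctss was at 68.0 ± 1.49 CPM (0.71, SE 0.06) and Ifi30 at 106 ± 3.97 (0.49). Marchf8 was lower by 0.83 and Ctsb by 0.51. RT1-DOb and RT1-Db2, whose promoters share the paired boxes, did not rise over Sham with RT1-Da and RT1-Db1. Their values were -0.23 (adjusted p = 0.159, edgeR's quasi-likelihood test) and -0.39 (SE 0.16, adjusted p = 0.0373, a call lost with median-of-ratios scaling). RT1-DOa was called higher than Sham, at 0.76 (SE 0.24).

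The list of CD74 partners held 3 surface receptors and 2 secreted ligands. In GPI the 3 receptors fell and the 2 ligands rose (1 with library totals only), beside 48.1% and 40.1% of all genes. Cxcr4 and Cxcr2, chemokine receptors of marrow leukocytes that pair with CD74, fell by 5.17 and 6.70, and Cd44, its signalling partner, by 1.69. Mif, a ligand of CD74, rose by 0.24 (SE 0.08), which turned to -0.85 with library totals only. Its homologue Ddt rose from 16.8 ± 0.717 to 50.2 ± 2.64 CPM (1.58, SE 0.07). In GMTT against GPI 3 rose and Ddt fell by 1.38, and in GMTT against Sham 4 were higher and Cxcr4 lower (-0.40). All genes were called higher in 45.7% and lower in 40.2% in the former contrast, and in 29.5% and 28.3% in the latter.

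Of 6 tested genes of the co-stimulation list 3 were lower and 2 higher in GPI (1 with library totals only), beside 48.1% and 40.1% of all genes. The 3 lower were the co-stimulatory Cd40, Cd80 and Cd86, and the 2 higher were the inhibitory ligands Cd274 and Pdcd1lg2. Cd86, which gives T cells their second signal, fell from 6.30 ± 0.371 to 0.301 ± 0.162 CPM (-4.39, SE 0.27) and Cd40 by 3.50. Cd274, the inhibitory ligand PD-L1, rose by 1.41 (SE 0.16, and 0.32, not called, with library totals only). Pdcd1lg2, PD-L2, had 5 counts over the Sham libraries, 55 over those of GPI and 7 over those of GMTT. In GMTT against GPI 4 were higher and 2 lower, beside 45.7% and 40.2% of all genes. Cd86 (4.11) and Cd80 (1.89) were among the higher ones. Over Sham, Cd80 rose from 2.06 ± 0.210 to 4.27 ± 0.548 CPM (1.05, SE 0.18, adjusted p = 7.47e-06, same test). Cd86 stood at -0.28 there, a call (adjusted p = 0.0478) lost with median-of-ratios scaling, with library totals only and with the replicate block (adjusted p = 0.0712 for the last).

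Class I pathway genes were mostly lowest in GPI. Of 12 tested genes 11 were lower in GPI than in Sham and 11 higher in GMTT than in GPI. Over all genes these shares were 48.1% and 45.7%. Nlrc5, the class I counterpart of Ciita, had 29.6 ± 1.64 CPM in Sham, 5.89 ± 0.484 in GPI and 43.9 ± 2.20 in GMTT, which was 0.57 (SE 0.06) above Sham. RT1-A1, a class I heavy chain whose reads may be shared with other class I copies, was lower in GMTT than in Sham by 0.60. The list had 6 genes higher, 2 lower and 4 not called in GMTT against Sham, beside 29.5% higher and 28.3% lower of all genes. Its median was 0.15, below the 1.31 of the 8 class II genes. That difference between medians was not tested, and the 8 genes had been selected on differences between these groups.

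Levels of cells that carry class II were read from marker lists. For the counts called in these lists, the shares over all genes were 40.1% higher and 48.1% lower in GPI against Sham. In GMTT against Sham they were 29.5% and 28.3%. Summed over the 8 class II genes, CPM ran from 239.4 to 259.8 in Sham, 106.0 to 115.9 in GPI and 561.3 to 595.6 in GMTT. Together 10 B cell markers ran from 669.8 to 712.4, 4.12 to 5.16 and 435.6 to 446.5, with Fcer2 at 0 in GPI. All 10 were called lower in GPI than in Sham, and in GMTT 8 were called lower than in Sham and none higher. The 2 not called there were Cr2, at -0.0004 on the log2 scale, and Fcer2, at 0.35 with every GMTT library above every Sham library. The B cell receptor genes Cd79a and Cd79b had 282 and 123 CPM in Sham, 0.490 and 0.173 in GPI and 172 and 71.2 in GMTT. The summed B cell list thus stood below Sham in GMTT, where the class II sum stood above it.

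The 11 monocyte and macrophage markers summed to 733.0 to 761.9 CPM in Sham, 108.7 to 113.4 in GPI and 809.7 to 854.6 in GMTT, none at 0. All 11 fell in GPI. In GMTT against Sham 6 were higher and 4 lower, with a median of 0.19 and a range of -0.48 to 0.53. Of the 6 higher, Csf1r, the receptor of the macrophage growth factor, was at 119 ± 3.19, 17.0 ± 0.662 and 167 ± 7.15 CPM. Itgam, also of these 6, was 0.48 above Sham in GMTT.

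The 9 dendritic cell markers summed to 72.1 to 75.8 CPM in Sham, 23.9 to 26.2 in GPI and 75.3 to 79.9 in GMTT, with 3 called higher and 4 lower in GPI than in Sham (1 higher with library totals only). Itgax (CD11c) fell by 6.12 in GPI. Clec9a, a receptor of cross-presenting dendritic cells, rose from 1.42 ± 0.139 to 3.96 ± 0.580 CPM (1.48, SE 0.20; not called, at 0.39, with library totals only) and stayed at 4.12 ± 0.230 in GMTT. Xcr1, of the same cells, had 2 counts over the Sham libraries, 6 over those of GPI and 76 over those of GMTT. Zbtb46, which endothelium also expresses, rose from 2.16 ± 0.340 to 12.7 ± 1.70 CPM in GPI and was 2.80 ± 0.179 in GMTT.

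The 6 endothelial markers summed to 299.0 to 317.0, 760.4 to 790.2 and 379.8 to 408.9 CPM, none at 0, with the highest sum in GPI. As a share of all counts, without scaling, GMTT was highest, at 0.0515% against 0.0466% in GPI and 0.0393% in Sham. Cdh5, the junction protein VE-cadherin, rose by 3.16 and Pecam1 by 1.80. Of the 6 markers, 5 were higher in GPI than in Sham and 1 was lower (4 and 2 with library totals only). The lower one was Vwf, von Willebrand factor, at 129 ± 5.54 CPM in Sham, 65.4 ± 0.440 in GPI and 188 ± 10.8 in GMTT. Muscle markers, given above, were also highest in GPI. The 5 T cell markers had low sums in every group, from 8.66 to 10.2, 2.89 to 4.20 and 12.3 to 13.7 CPM summed. The part of these cell types in the class II differences was not tested.

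**Figure D5:**
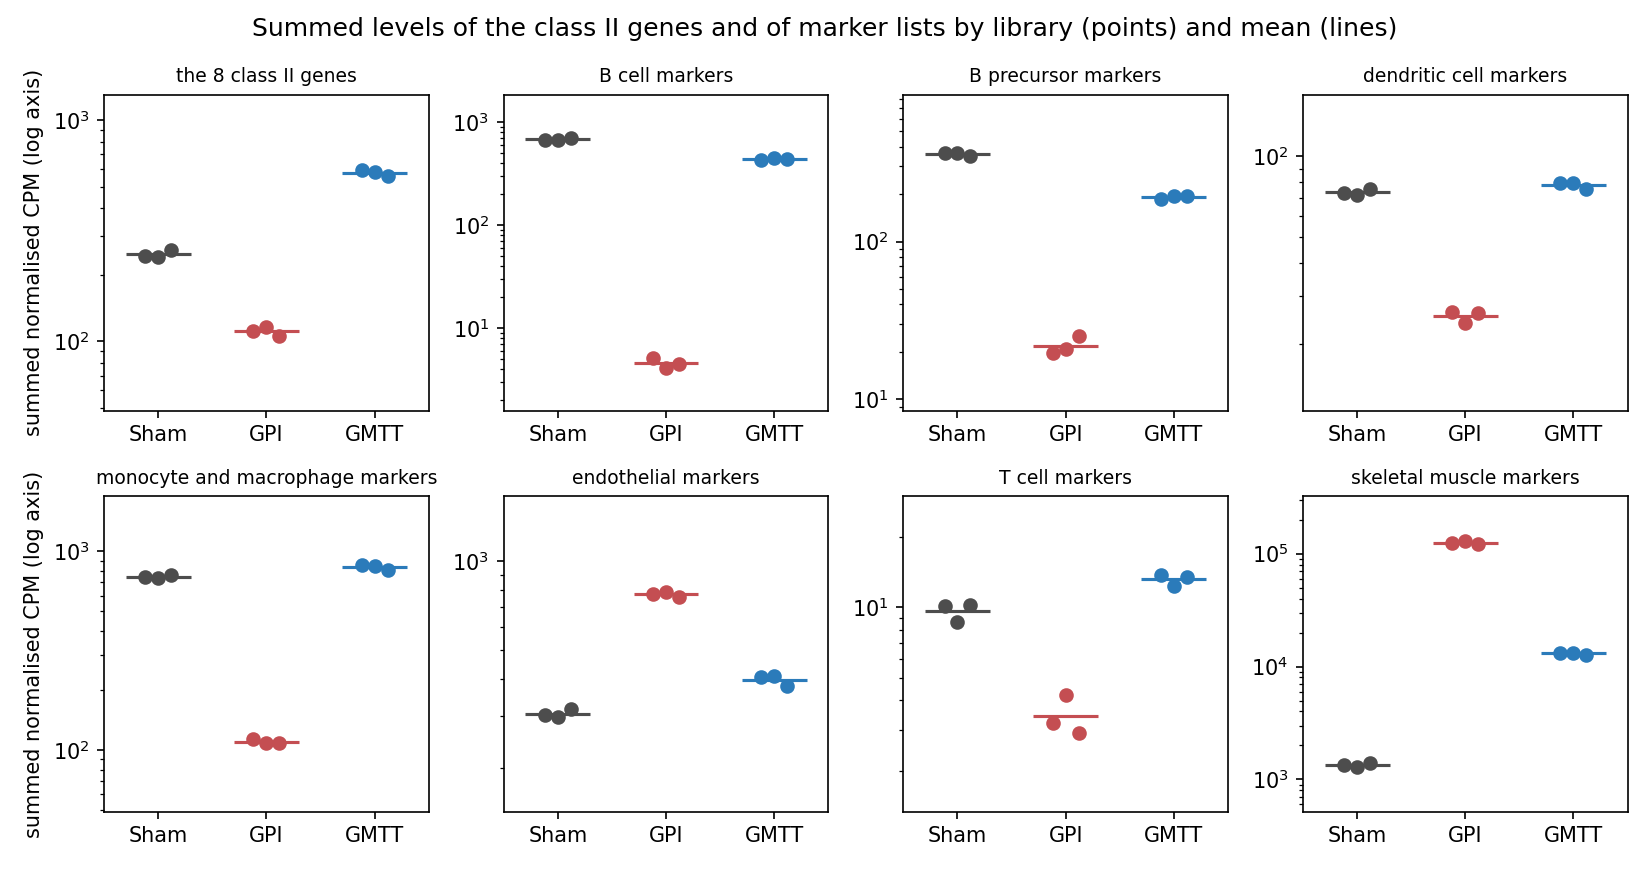
Summed normalised CPM (log axis; each panel has its own range) of the 8 class II genes and of 7 marker lists by library (points) with group means (lines). In GMTT the class II sum, 561.3 to 595.6, lies above Sham, while the B cell and B precursor lists lie below Sham; endothelial and muscle lists are highest in GPI, the endothelial one not as a share of unscaled counts.

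By pattern over the 9 libraries, 9824 genes whose log2 CPM averaged 3 or more were compared with the mean profile of the 8, each centred on its own mean. The likeness is the root mean square distance on the log2 scale. The nearest was Cfb, complement factor B, at 0.095, a gene that lies in the MHC as well. It had 44.2 ± 1.92 CPM in Sham, 24.1 ± 0.352 in GPI and 93.4 ± 4.52 in GMTT. Next came Olfm1 (0.247), Myof (0.248), Mmp19 (0.256) and Adam19 (0.266). Among the 8 themselves the distance ran from 0.243 for RT1-Da to 1.31 for RT1-Bb, with RT1-DMa at 0.848, RT1-Db1 at 1.05 and RT1-Ba at 1.16.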

How the data were processed

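The 9 poly(A)-selected, strand-specific RNA libraries of femur were sequenced paired-end, per the labels' protocols. For each gene the authors deposited a raw count and an FPKM value, on mRatBN7.2 (submitters' processing notes). Which aligner, counting program, strand setting and multi-mapping rule were used is not stated there. Values of the polymorphic and duplicated RT1 genes are therefore uncertain. The deposited FPKM are counts over gene length over 1 constant per library that already carries a scaling between libraries.

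Counts of all 9 libraries were fitted with edgeR 4.0.16 (R 4.3.3): TMM scaling, the default filter (minimum count 10), robust quasi-likelihood F tests, 2-sided, Benjamini-Hochberg adjusted over 15936 genes, called below 0.05. SE is the absolute log2 fold change over the square root of F. Libraries of a group differed beyond sampling noise (chi-square per degree of freedom 1.99 to 5.15), and each library was treated as 1 sample. This spread does not show whether the libraries came from separate animals. The test was checked on simulated counts in which few genes changed, in random directions. Such counts lack the wide shift seen between these groups, so they could not check the scaling. Alternatives used DESeq2 1.42.0, limma 3.58.1, other scalings and filters, 6 libraries, a replicate block and each library left out. Added after seeing the data was a fit without mitochondrially encoded, muscle and erythroid genes.

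The 8 genes and all lists were chosen with earlier results of these data known. From each pathway list up to 4 genes, and from each marker list up to 3, were to be named by smallest p in a contrast, plus 5 genes of nearest pattern; the text leaves some of these out. Named outside this rule, after their values were seen, were Rfx5, Rfxap, Rfxank, Nfyb, Nfyc, RT1-Db2, RT1-DOa, RT1-DOb, Psmb9, Cr2, Fcer2 and LOC120098895. Vwf met the rule in GMTT against Sham only. Zero columns of per-sample values were left unused. Icosl, Cd4, Tapbpl, Psmb10 and Myh1 had no row by that symbol and were not analysed here, and RT1-Ha, Tapbp and Cd3d were below the filter. Promoters came from RefSeq (GRCr8), whose coordinates are not those of the gene models. Figures were drawn with matplotlib 3.10.9.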

Additional observations from a re-analysis of the deposited data

How the results depend on the processing

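Under alternatives, 447 fold changes of the 8 class II genes kept direction and side of the threshold, 8 changed sign and 1 became called. Over all genes, the number called ran from 11117 to 15279 in GPI against Sham, 10911 to 14682 in GMTT against GPI and 7784 to 9359 in GMTT against Sham. In GMTT against GPI RT1-Ba, not called, changed sign: -0.0021 with median-of-ratios scaling, -0.0014 with DESeq2, -0.016 with a filter of 5 CPM in 3 libraries, -0.0069 without mitochondrial, muscle and erythroid genes (chosen after seeing the data), and below 0 without GMTT replicate 1, GMTT replicate 3 or GPI replicate 3, in a range of -0.044 to 0.13 over each library left out. With library sizes only, RT1-Bb turned to 0.48, Ctsl to 0.17, Cd274 to 0.25, Rfxank to 0.63, Nfyc to 0.83 and Mif to 1.08, and, in GPI against Sham, Ifngr1 to -0.47, Rfxank to -0.66 and Mif to -0.85. Median-of-ratios scaling turned Ifngr1 to -0.019 in GMTT against GPI, Tap2 to 0.013 in GMTT against Sham and Nfyc to 0.016 in GPI against Sham, none of them called.

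The median of the 8 moved to -2.17 and 3.73 with library sizes only in the first and second contrast, a shift of all genes. On log2(FPKM + 1) it was -0.52, 1.70 and 0.87 in the 3 contrasts, where the pseudocount shrinks low genes.

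Replicate numbers did not pair libraries: correlations of same-numbered libraries ran from -0.231 to 0.0907, and 3 of 9 libraries correlated best with their own number. With the replicate block 13960, 13574 and 8815 genes were called, in place of 14049, 13685 and 9218, and 8, 7 and 8 of the class II genes. Depth limits, among genes with printed fold changes or counts, RT1-Db1, RT1-Db2, RT1-DOa, RT1-DOb, Cd86, Cd40, Cd79a, Cd79b, Cr2, Fcer2, Itgax and Xcr1, which had 24 or fewer counts over the GPI libraries, and RT1-A1 (26) and Cxcr2 (29).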
